A study of Saccharomyces cerevisiae with 6 samples.

Results

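The genes described here encode the tubulins, the spindle pole body and the motors and binding proteins of microtubules in budding yeast. They were taken by name, for what their products do, and all 39 of 39 were found on the array, each as 1 probe set, among 5726 Saccharomyces cerevisiae genes tested. Expression was read on 6 Affymetrix Yeast 2.0 arrays. The eEF1A group held 2 arrays (replicates 2 and 3) of cells carrying a multi-copy 2 micron plasmid with TEF1, a gene of the translation elongation factor eEF1A, which by the methods was driven by the GPD promoter. The control group held 4 arrays (replicates 1 to 4) of cells with the empty plasmid. Both plasmids carry LEU2 as the marker, and all cultures grew at 30°C in synthetic medium lacking leucine, were diluted to an optical density of 0.1 and were collected in log phase at 0.7. The labels call the eEF1A cells enlarged and the control cells normal in size. The labels do not tie the arrays to separate cultures and the methods give biological triplicates, so the p-values measure the spread between these arrays.

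The spindle pole body is the yeast counterpart of the centrosome. It is a layered disc that stays in the nuclear envelope through mitosis, and microtubules of alpha- and beta-tubulin grow from gamma-tubulin complexes on its nuclear and cytoplasmic faces. A bridge at its side is where the new body is built once in each cell cycle, and kinesins, plus-end proteins and kinetochore complexes then shape the spindle and move the chromosomes. Many of these genes are transcribed in waves over the cell cycle, and dynein pulls on the cytoplasmic microtubules to place the spindle across the bud neck.

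All values are log2 expression after robust multi-array averaging (RMA), and each difference is eEF1A minus control from limma with its standard error (SE). The probe set shared by TEF1 and TEF2 read 14.51 and 14.49 on the eEF1A arrays, against 14.49, 14.51, 14.48 and 14.49 on the control arrays. These values were close to the top of the scale and gave no check of the plasmid. Whether the signal could still rise at that level was not tested. The groups also differed in genes that tell yeast strains apart. All 7 a-cell genes were lower in eEF1A, with a summed level of 9.33 and 9.60 there and 14.53 to 14.59 in control, and all 4 alpha-cell genes were higher, at 14.22 to 14.51 in eEF1A and 8.49 to 8.58 in control. None of the a-cell genes was below background on both eEF1A arrays, while 1 of the 4 alpha-cell genes, MF(ALPHA)1, was below it on every control array. MET17 read 11.47 and 11.62 in eEF1A, against 4.75 to 5.22 in control, and URA3 read 7.56 and 7.25 in eEF1A, against 4.22 to 4.57 in control, with control values near or below the background level of 5.18. Mating type, marker genes and eEF1A cannot be told apart in any difference below. The spike controls of the older design averaged 9.84 on eEF1A replicate 2, against 11.60 on eEF1A replicate 3 and 11.33 to 11.39 on the control arrays, whereas the newer versions of the same spikes averaged 11.76 on eEF1A replicate 2, 12.09 on eEF1A replicate 3 and 11.75 to 11.83 on the control arrays.

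To ask whether transcripts of the spindle apparatus differed between the eEF1A and control groups, the 39 genes were read from a fit over all genes. At a Benjamini-Hochberg adjusted p under 0.05, 9 of the 39 genes were lower in eEF1A, where 15.4% of all genes were, and 2 of the 39 were higher, where 27.5% of all genes were. Centring each array on its S. cerevisiae median gave 13 lower and 0 higher members, where 25.1% of all genes were then lower and 24.2% higher, and moved the share of higher genes among all calls to 49.0%, against 64.1% without it. The lower genes were SPC42, SPC29, CNM67, BBP1, NDC1, TUB4, NDL1, ASK1 and SPC24, and the higher genes were KIP1 and BIM1. The differences were small. In the analysis as reported no member moved by more than 0.5 on the log2 scale, whereas 10.2% of all genes did. The members ran from -0.46 to 0.19, and their median was -0.02, against 0.04 for all genes. The sizes depended on the normalization. SPC42 was at -0.52 on median centring. When the arrays were quantile normalized again, SPC42 was at -0.571, SPC29 at -0.513, CNM67 at -0.505 and BBP1 at -0.505. The share of all genes past 0.5 was not computed for these settings. The methods called genes at a B-statistic (log odds of a difference) above 1.5, and limma gave 0 members past it in either direction, while 11 of the 39 (28.2%) had an unadjusted p under 0.05, against 51.5% of all genes. Over all genes that rule called 6.08% higher and 2.51% lower. On 10 of the 39 genes both eEF1A arrays lay below all 4 control arrays, as they did for 21.5% of all genes, and on 5 of the 39 both lay above, as they did for 35.8% of all genes. In whole cultures a lower signal can come from fewer cells at a stage or from less RNA per cell, and these cannot be told apart.

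**Figure D1:**
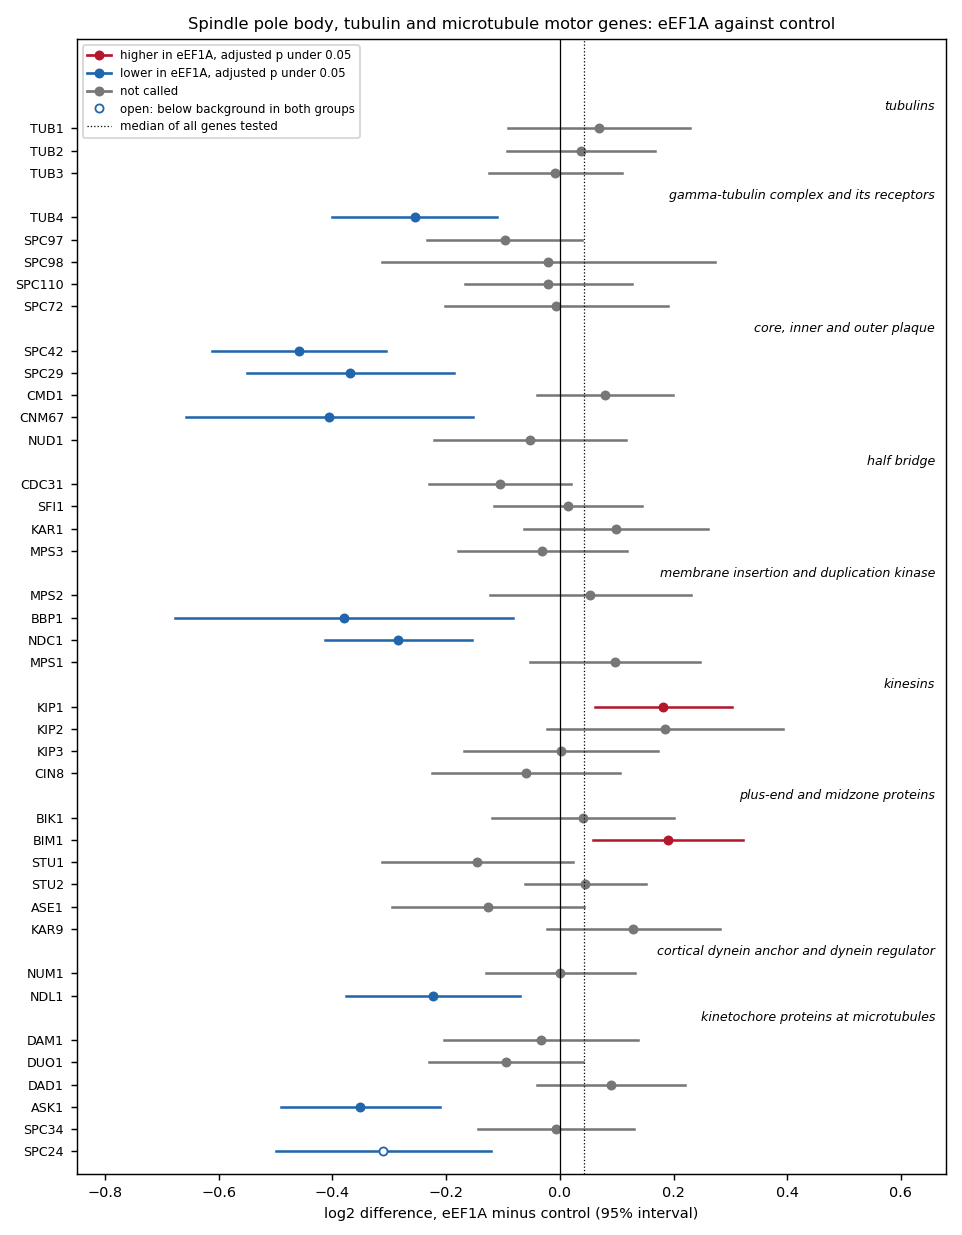
Log2 difference, eEF1A minus control, for each of the 39 genes (points) with its 95% interval from limma (lines), grouped by role and coloured by call. The 9 lower genes lie mostly in the core of the spindle pole body, its membrane insertion and the kinetochore rows, while the tubulins sit beside the dotted line, the median of all genes (0.04); the open point is SPC24, below background in both groups.

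The tubulins of the microtubule wall did not pass the test. TUB1, the major alpha-tubulin gene, read 12.29 and 12.18 in eEF1A, against 12.23, 12.03, 12.21 and 12.20 in control (difference 0.07 ± 0.07 SE, adjusted p = 0.459). TUB2, the only beta-tubulin gene, read 12.56 and 12.42 in eEF1A, against 12.46, 12.43, 12.49 and 12.43 in control (difference 0.04 ± 0.06 SE, adjusted p = 0.627). TUB3, the minor alpha-tubulin gene, read 11.18 and 11.11 in eEF1A, against 11.11, 11.14, 11.17 and 11.19 in control (difference -0.01 ± 0.05 SE, adjusted p = 0.916). The groups overlapped for all 3 genes. The 95% intervals of the differences ran from -0.09 to 0.23 for TUB1, from -0.09 to 0.17 for TUB2 and from -0.13 to 0.11 for TUB3.

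The gamma-tubulin gene was lower. TUB4, which encodes the tubulin that starts new microtubules at the spindle pole body and lies on chromosome 12 at 564860 to 566281 on the minus strand in the array's 2003 annotation, read 8.70 and 8.76 in eEF1A, against 8.95, 8.91, 9.10 and 8.97 in control. Both eEF1A arrays lay below all control arrays, with a difference of -0.26 ± 0.06 (SE), 1.19-fold lower (adjusted p = 0.0123). With array weights the adjusted p was 0.0587, and with only the arrays numbered 2 and 3 it was 0.0792. Its complex partners did not pass. SPC97 differed by -0.10 (adjusted p = 0.223), but was called lower on median centring (-0.15, adjusted p = 0.0197) and on quantile normalization (-0.21, adjusted p = 0.00876). The receptor that ties the complex to the nuclear face, SPC110, differed by -0.02 (adjusted p = 0.827), and by -0.14 on quantile normalization, where it was called lower (adjusted p = 0.0330). SPC72, the receptor on the cytoplasmic face, differed by -0.01 (adjusted p = 0.959).

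The second partner, SPC98, split the eEF1A arrays. It read 8.11 on eEF1A replicate 2 and 7.56 on replicate 3, against 7.87, 7.85, 7.82 and 7.86 on the control arrays. The 2 eEF1A arrays thus stood on opposite sides of a control group whose range was 0.05. The difference was -0.02 ± 0.13 (SE, adjusted p = 0.912) with both arrays, -0.30 without eEF1A replicate 2 (adjusted p = 0.00440) and 0.25 without eEF1A replicate 3 (adjusted p = 0.00784). No direction was read for this gene.

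The 2 largest differences, of SPC42 and CNM67, were in the central and outer layers of the spindle pole body. SPC42, whose product forms the crystalline core layer, is on chromosome 11 at 358116 to 359207 on the plus strand. It read 7.56 and 7.36 in eEF1A, against 7.91, 7.87, 7.98 and 7.91 in control. The groups were well apart, with a difference of -0.46 ± 0.07 (SE), 1.37-fold lower, the largest of the 39 genes (adjusted p = 0.00111). It stayed past the threshold in all 17 other settings of the analysis. SPC29, which links the core to the inner plaque and lies on chromosome 16 at 316754 to 317515 on the plus strand, read 7.18 and 7.02 in eEF1A, against 7.49, 7.52, 7.31 and 7.54 in control. Its difference was -0.37 ± 0.08 (SE), 1.29-fold lower, with no overlap (adjusted p = 0.00688). With only the arrays numbered 2 and 3 the adjusted p was 0.0666.

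CNM67, which spaces the outer plaque from the core and lies on chromosome 14 at 222723 to 224468 on the minus strand, read 8.10 and 7.72 in eEF1A, against 8.26, 8.28, 8.47 and 8.24 in control. Both eEF1A arrays were below every control array, but replicate 3 was far lower than replicate 2. The difference was -0.41 ± 0.11 (SE, adjusted p = 0.0187), and without eEF1A replicate 3 it was -0.21 and no longer passed (adjusted p = 0.103). NUD1, the outer plaque scaffold of the mitotic exit network, differed by -0.05 (adjusted p = 0.599). CMD1, calmodulin, which binds the inner plaque and has many other roles, differed by 0.08 with both eEF1A arrays above all controls, and did not pass (adjusted p = 0.256). Of the 5 genes of the core and its plaques, 3 were therefore lower, where 15.4% of all genes were. The median of the 5 differences was -0.37, against 0.04 for all genes.

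None of the 4 genes of that bridge passed. CDC31, the yeast centrin, differed by -0.10, with both eEF1A arrays below all controls (adjusted p = 0.155), and was called lower on median centring (-0.16, adjusted p = 0.0311) and on quantile normalization (-0.15, adjusted p = 0.0328). SFI1, the long centrin-binding protein whose filaments span the bridge, differed by 0.01 (adjusted p = 0.859). KAR1 and MPS3, the membrane proteins of the bridge, differed by 0.10 (adjusted p = 0.290) and by -0.03 (adjusted p = 0.734). The bridge must lengthen before the body is duplicated, and the 4 differences of its genes spanned -0.10 to 0.10.

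Among the genes for inserting the new body into the nuclear envelope, NDC1 and BBP1 were lower. NDC1, a membrane protein shared by the spindle pole body and the nuclear pore, lies on chromosome 13 at 214189 to 216156 on the plus strand and read 10.005 and 9.89 in eEF1A, against 10.22, 10.21, 10.29 and 10.20 in control. The groups did not overlap, with a difference of -0.28 ± 0.06 (SE), 1.22-fold lower (adjusted p = 0.00469). With the replicate number as a block it was -0.30 and no longer passed (adjusted p = 0.107). BBP1, which helps to hold the body in the envelope, is on chromosome 16 at 67725 to 68882 on the plus strand and read 7.69 and 7.14 in eEF1A, against 7.75, 7.85, 7.82 and 7.77 in control. Replicate 2 lay just under the controls and replicate 3 far under them. The difference of -0.38 ± 0.13 (SE) passed narrowly (adjusted p = 0.0446) and did not when any one control array was left out (adjusted p between 0.0711 and 0.0902). Without eEF1A replicate 3 it was -0.10 (adjusted p = 0.205). MPS2, the binding partner of Bbp1, differed by 0.05 (adjusted p = 0.606), and MPS1, a kinase of duplication and of the spindle checkpoint, by 0.10 (adjusted p = 0.266).

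**Figure D2:**
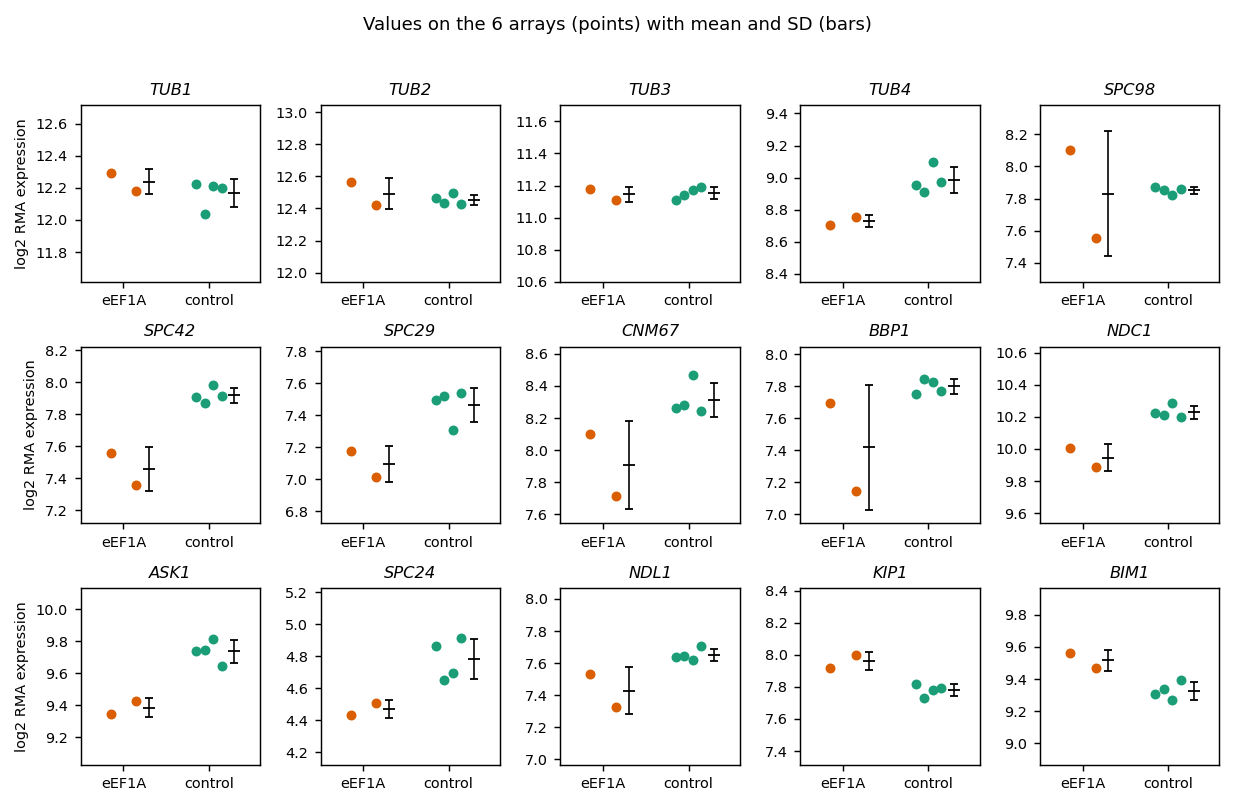
Log2 expression on each array for 15 genes, eEF1A at the left and control at the right of each panel, with points for arrays and bars for mean and SD; every panel spans the same log2 range. The tubulin groups overlap, SPC42 and ASK1 are cleanly apart, and the eEF1A points of SPC98, CNM67 and BBP1 are far from each other.

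Of the 4 kinesins, only KIP1 passed. KIP1, a kinesin-5 that slides spindle poles apart, read 7.92 and 8.001 in eEF1A, against 7.82, 7.73, 7.78 and 7.79 in control. Both eEF1A arrays were above all controls, with a difference of 0.18 ± 0.05 (SE), 1.13-fold higher (adjusted p = 0.0238). Its paralog CIN8, which shares that role, differed by -0.06 (adjusted p = 0.540), and the difference between the 2 genes was not tested. KIP2, which carries cargo to microtubule plus ends, differed by 0.19, close to that of KIP1, but with overlapping groups (adjusted p = 0.132). KIP3, a kinesin-8 that shortens microtubules, differed by 0.00 (adjusted p = 0.989). The call for KIP1 was lost when the arrays were centred on the S. cerevisiae median (0.12, adjusted p = 0.108) and when they were quantile normalized again (0.06, adjusted p = 0.453). KIP1 also missed the threshold when control replicate 2 (adjusted p = 0.0624), control replicate 4 (adjusted p = 0.0592) or eEF1A replicate 3 (0.14, adjusted p = 0.0845) was left out.

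At microtubule plus ends, BIM1 was higher. BIM1, the yeast EB1 protein, which tracks growing ends, read 9.56 and 9.47 in eEF1A, against 9.31, 9.34, 9.27 and 9.40 in control. The groups did not overlap, with a difference of 0.19 ± 0.06 (SE), 1.14-fold higher (adjusted p = 0.0290). It was lost on median centring (0.13, adjusted p = 0.0717), without control replicates 1, 2 or 3 (adjusted p between 0.0587 and 0.0776) and without eEF1A replicate 2 (0.14, adjusted p = 0.116). KAR9, which links Bim1 to actin cables for spindle positioning, and STU2, a microtubule polymerase, also had both eEF1A arrays above all controls, but their differences of 0.13 (adjusted p = 0.148) and 0.04 (adjusted p = 0.469) did not pass. BIK1, the yeast CLIP-170, differed by 0.04 (adjusted p = 0.675). STU1, a CLASP protein of the spindle, and ASE1, which crosslinks the midzone, had differences of -0.15 (adjusted p = 0.143) and -0.13 (adjusted p = 0.198). Both were called lower on median centring, at adjusted p = 0.0218 for STU1 and adjusted p = 0.0234 for ASE1.

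The cortical and regulatory arms of the dynein pathway gave 1 call. NDL1, the yeast homologue of the dynein regulator NudE, read 7.53 and 7.33 in eEF1A, against 7.64, 7.64, 7.62 and 7.71 in control. Both eEF1A arrays were lower than all controls, with a difference of -0.22 ± 0.07 (SE), 1.17-fold lower (adjusted p = 0.0274). Without eEF1A replicate 3 the difference was -0.12 (adjusted p = 0.135), and the call was also lost without control replicates 1, 2 or 4 (adjusted p between 0.0566 and 0.0725). NUM1, which anchors dynein at the bud cortex, differed by 0.00 (adjusted p = 0.992). Some genes of dynein and dynactin themselves, the motor and its activator, gave calls in the other direction. Of 11 measured genes 5 were higher (27.5% of all genes were) and 0 lower, with 6 higher and 0 lower at an unadjusted p under 0.05 in limma, where 32.6% of all genes were higher. NIP100 (0.46), CAP2 (0.43) and DYN3 (0.39) had the largest differences of these, and the median of the 11 genes was 0.13. Of the 11 differences 9 were positive and 2 negative. The dynein heavy chain gene DYN1 differed by 0.13 with overlapping groups and did not pass (adjusted p = 0.130). JNM1, of dynactin, differed by -0.18 and did not pass (adjusted p = 0.244).

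At the kinetochore, the genes of the DASH ring, which couples chromosomes to microtubules, were uneven. ASK1, on chromosome 11 at 339309 to 340187 on the minus strand, read 9.34 and 9.43 in eEF1A, against 9.74, 9.74, 9.82 and 9.65 in control. The groups were well apart, with a difference of -0.35 ± 0.06 (SE), 1.28-fold lower (adjusted p = 0.00259), and the call was kept in all 17 other settings. The other DASH genes among the members did not pass (adjusted p between 0.226 for DUO1 and 0.939 for SPC34). Their differences were -0.03 for DAM1, -0.10 for DUO1, 0.09 for DAD1 and -0.01 for SPC34. SPC24, of the Ndc80 complex, read 4.43 and 4.51 in eEF1A, against 4.86, 4.65, 4.70 and 4.91 in control. All of these values were under 5.18, the level below which 95% of the Schizosaccharomyces pombe probe sets of the same array lay, so no size is given although the fit called it (adjusted p = 0.0168, and 0.0732 without eEF1A replicate 2). Of 8 further DASH and Ndc80 genes, DAD2 alone passed, at -0.23 (adjusted p = 0.0425).

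The eEF1A arrays did not move together for every gene. Replicate 2 read above replicate 3 for 31 of the 39 genes, as it did for 82.2% of all genes, and the median gap between them was 0.13 for the members and 0.12 for all genes. Against the control mean, the median of the members was 0.03 on replicate 2 and -0.08 on replicate 3, where that of all genes was 0.09 and -0.01. The widest gaps were 0.55 for BBP1, 0.55 for SPC98 and 0.39 for CNM67. TUB4, ASK1 and SPC24 were instead lower on replicate 2, and SPC42 was at least 0.36 below the control mean on both. The part of array quality in these gaps was not tested.

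**Figure D3:**
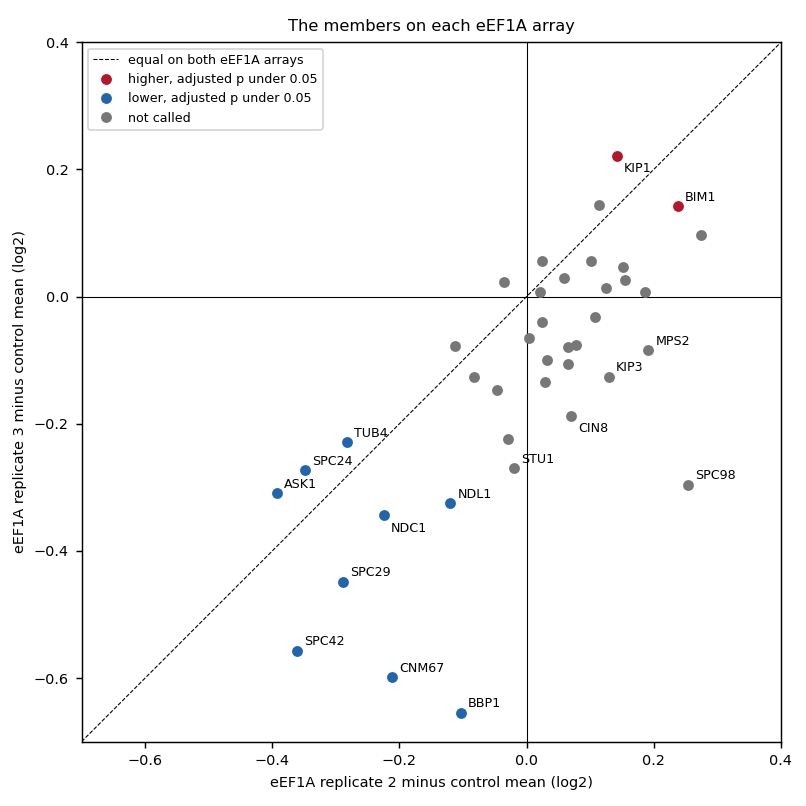
Each gene's log2 value minus the control mean on eEF1A replicate 2 (x axis) and on eEF1A replicate 3 (y axis), coloured by call; the dashed line marks equal values. SPC42 and ASK1 are low on both arrays, BBP1 and CNM67 lie well under the line, and SPC98 is above the control mean on one array and below it on the other.

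Genes that work with the members gave calls in both directions. Over these 66 measured genes, dynein and dynactin included, 16.7% were higher and 15.2% lower, against 27.5% and 15.4% of all genes. Of 15 further spindle pole body and spindle genes, 1 was higher and 2 were lower. FIN1, a filament protein of the anaphase spindle, was 0.56 higher (adjusted p = 0.000695), while IPL1, the Aurora B kinase, differed by -0.36 (adjusted p = 0.00267) and SPO21, of the meiotic outer plaque, by -0.22 (adjusted p = 0.0461). Of 15 spindle checkpoint and mitotic exit genes, 2 were higher and 4 lower, among them the checkpoint genes MAD3 (0.51) and BUB2 (0.34) and the mitotic exit kinase activator MOB1 (-0.33). Of 13 tubulin folding and prefoldin genes, 2 were higher and 3 lower, the lower ones including the prefoldin subunits PAC10 (-0.47) and YKE2 (-0.32) and the higher ones being CIN4 (0.29), a tubulin folding gene, and the prefoldin subunit GIM4 (0.16). Of 4 remaining kinesin and kinesin-14 partner genes, SMY1 alone passed, at 0.39 (adjusted p = 0.00176).

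Markers of cell cycle stage also differed between the groups. Beside the 15.4% lower and 27.5% higher over all genes, 6 of 8 G1 cyclin and DNA synthesis genes were lower in eEF1A and 0 higher, with a median of -0.33, among them RNR1 (-0.52), POL30 (-0.50) and CLB5 (-0.40). Of 10 G2 and M genes, 4 were lower and 1 was higher (median -0.17), with KIN3 at -0.32, CLB2 at -0.32 and HOF1 at -0.29. Of 8 M to G1 genes, 4 were higher and 0 lower (median 0.16), led by DSE1 (0.55), CTS1 (0.39) and EGT2 (0.24), which act in daughter cell separation. The other 4 were not called, with SCW11 at 0.04, ASH1 at 0.07, PCL9 at 0.13 and SIC1 at -0.23. Of 6 measured histone genes, HTA2 alone passed, at -0.46 (adjusted p = 0.00155). The part of these shifts in the lower values of SPC42, CNM67 and the other members was not tested.

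**Figure D4:**
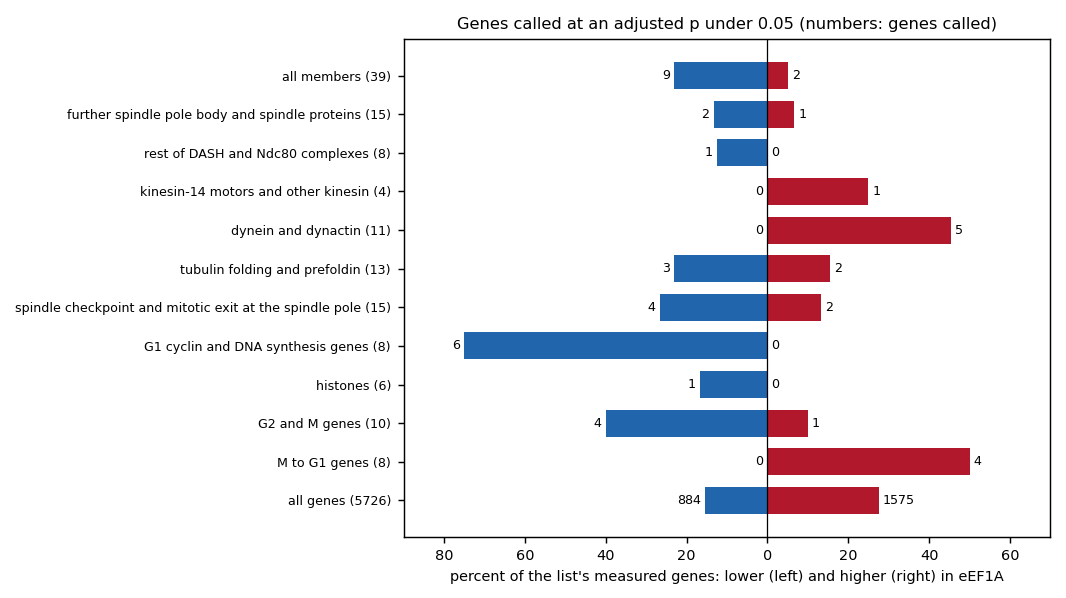
Percent of the measured genes of each list called lower (bars to the left) and higher (bars to the right) in eEF1A at an adjusted p under 0.05, with the number of genes beside each bar and the number measured in parentheses. The 39 members had 9 lower and 2 higher, the dynein and dynactin genes 0 lower and 5 higher, and the G1 cyclin and DNA synthesis genes 6 lower and 0 higher.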

How the data were processed

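Total RNA of log phase cultures was hybridised to Affymetrix Yeast 2.0 arrays. The authors normalized the arrays with RMA in affylmGUI (versions not given in the sources used here) and deposited log2 expression values. RMA sets the probe intensities of the arrays to an equal distribution before they are summarised, over probes of both yeasts on the chip. The authors' comparison columns (fold changes, B-statistics, p-values) were not used, and value columns of other samples were 0 in number. The 39 genes and all other lists were chosen with earlier results of these data known. A linear model with only the group was fitted with limma 3.58.1 (R 4.3.3) on the deposited log2 values of 5810 S. cerevisiae probe sets, using a prior proportion of 0.01, 4.09 prior and 4 residual degrees of freedom. For genes with several probe sets the one with the highest mean was kept, and p-values were adjusted by Benjamini-Hochberg over 5726 genes. The fit was tested on simulated data with independent noise for each gene and planted differences larger than that of any member. The simulation held no shift shared by an array, so it cannot tell how such shifts affect the calls. Values on every array are given for TUB1 to TUB4 and the members with the 10 largest absolute differences. KIP1 and SPC98 were added after their values were seen. From other lists up to 3 called genes with the largest differences are named, with CIN4 and GIM4 added after their values were seen. Coordinates are those of the chip's annotation. Array number limits the precision.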

Additional observations from a re-analysis of the deposited data

Results flagged for a closer look

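With 4 control arrays per gene, the highest or lowest array was set against the group's range for all 39 genes, and 5 genes had an array far from the other 3. Chance alone gives about 1 in 20 groups if values are normally spread, and the share over all genes was not computed. TUB1 was low on control replicate 2 (12.03, where the highest control array read 12.23), and NUD1 was low on the same array (6.78, with the highest at 6.97). KAR1 was low on control replicate 1 (7.74, with the highest at 7.92), and MPS1 was low on control replicate 4 (8.30, with the highest at 8.41). CNM67 was high on control replicate 3 (8.47, with the lowest control array at 8.24). Of these genes only CNM67 was called, and without control replicate 3 its difference was -0.35 and still passed (adjusted p = 0.0416 from limma).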

How the results depend on the processing

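Each of the 39 genes was refitted under 17 alternatives, giving 662 values, of which 556 kept direction and side of the threshold, 41 lost a call, 18 gained one and 47 changed sign, of which 1 (SPC98) also gained a call. No gene called in the analysis as reported changed sign. SPC42 and ASK1 kept their calls throughout. CNM67 kept its call in all settings but the one without eEF1A replicate 3. NDC1 kept its call in all but the one with the replicate number as a block. Against 9 lower and 2 higher genes as reported, median centring gave 13 lower and 0 higher with a median of -0.077, and a further quantile normalization 17 lower and 1 higher with a median of -0.13. SPC97, CDC31, STU1 and ASE1 were also called lower under both, and SPC110, NUD1, CIN8 and DUO1 on quantile normalization. Without eEF1A replicate 2, SPC98, CIN8, STU1 and ASE1 were called lower, and without eEF1A replicate 3, MPS1 (0.19) and MPS2 (0.19) were called higher. Array weights gave 5 lower and 0 higher, with TUB4, BBP1, NDL1, SPC24, KIP1 and BIM1 lost, and the arrays numbered 2 and 3 alone gave 4 lower and 0 higher. At a B-statistic above 1.5 the counts were 0 lower and 0 higher, with 2 lower on median centring and 1 on quantile normalization. Leaving out single control arrays gave 7 or 8 lower and 0 or 1 higher genes and a median from -0.034 to -0.015. Over all genes, calls fell too, to 687 to 730 lower and 1259 to 1493 higher. Without eEF1A replicate 2 the median of the members was -0.084 and that of all genes -0.0073. Without eEF1A replicate 3 these medians were 0.029 and 0.092. With both arrays they were -0.020 and 0.042, so the members and all genes moved the same way. Over all genes, 1575 higher and 884 lower calls became 1385 and 1439 on median centring, 1371 and 1491 on quantile normalization (47.9% of calls higher), 1083 and 562 with array weights, and 853 and 461 with only arrays 2 and 3.

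With the replicate number as a block (replicate block), 4 members were lower and 0 higher, and 773 genes in all were higher and 436 lower. Same-numbered arrays correlated at -0.01 (replicates 2) and -0.04 (replicates 3) in their deviations from the group means. With 2 eEF1A arrays these deviations mirror each other, so this check cannot decide whether the numbers pair the arrays.

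Signs changed in genes that were not called. On median centring TUB2 was at -0.020, SFI1 at -0.043, MPS2 at -0.0036, KIP3 at -0.056, BIK1 at -0.017, STU2 at -0.012 and NUM1 at -0.056. On quantile normalization TUB2 was at -0.0067, SFI1 at -0.068, KAR1 at -0.015, MPS2 at -0.097, KIP3 at -0.073, BIK1 at -0.070, STU2 at -0.022 and KAR9 at -0.010. With array weights SPC72 was at 0.0041 and KIP3 at -0.00011. With the replicate block, and with only arrays 2 and 3, MPS3 was at 0.014 and NUM1 at -0.0039. Without single arrays the ranges were -0.032 to 0.11 for TUB2, -0.040 to 0.024 for TUB3, -0.30 to 0.25 for SPC98, -0.11 to 0.066 for SPC110, -0.048 to 0.042 for SPC72, -0.13 to 0.029 for NUD1, -0.0068 to 0.033 for SFI1, -0.066 to 0.0043 for MPS3, -0.084 to 0.19 for MPS2, -0.13 to 0.13 for KIP3, -0.19 to 0.070 for CIN8, -0.077 to 0.078 for NUM1, -0.099 to 0.032 for DAM1 and -0.079 to 0.065 for SPC34. The cause was not tested. With 2 eEF1A arrays the spread of that group rests on 1 difference per gene, and SPC24 lies below background.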
